A study of Homo sapiens with 9 samples.

Results

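The genes examined here are 9 genes of antigen presentation by major histocompatibility complex (MHC) class I, taken by symbol from the 19356 genes of the deposited expression table: HLA-B, HLA-C, HLA-E, B2M, TAP1, TAP2, TAPBP, PSMB9 and NLRC5. All 9 were found and all 9 passed the filter on low values, which 16457 genes passed. The cells were LN229, a long-established glioblastoma line of human origin, and 9 libraries of their polyadenylated RNA were sequenced. There were 3 libraries of wild-type cells (WT), 3 of the ARNT2 knockout line B3 and 3 of the ARNT2 knockout line C4, in which CRISPR was used against ARNT2. All cells grew in DMEM with 5% FBS, and the labels name no cytokine or other treatment. Each knockout line is a single line, so an effect of the knockout and a trait of that line cannot be told apart. Nothing in the labels says whether the 3 libraries of a group were cultured separately. The p-values therefore cover only the spread among these libraries, which may be technical.

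MHC class I molecules show peptides from inside the cell to cytotoxic T cells and natural killer cells. A proteasome cuts proteins into peptides, the TAP transporter carries them into the endoplasmic reticulum, tapasin holds the empty class I molecule at the transporter, and a heavy chain joined to beta-2 microglobulin takes the peptide to the cell surface. Interferons raise the whole set of genes, and NLRC5 is a transcription coactivator dedicated to it. Many tumours, glioblastoma among them, present antigen poorly by this route.

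Levels below are the deposited log2 expression values. Each change is a log2 fold change with its SE from a limma fit, with n = 3 for every group, and "called" means an adjusted p (Benjamini-Hochberg, over all genes tested) under 0.05. ARNT2 itself lay between 13.56 and 13.59 in wild type and between 11.86 and 12.22 in the 6 knockout libraries. The files give scaled log2 values and no read counts, so the depth is unknown. B3 and C4 were compared with the same 3 wild-type libraries, so those comparisons are not independent of each other. Among called genes, 48.5% were higher in B3 and 50.2% in C4 with the deposited scaling, and 64.2% and 61.5% after the libraries were brought to equal totals. All 7 glial and glioma markers passed the filter, and the astrocyte marker GFAP was weak, with a mean of 6.79. Their summed antilogs were 4.75e+05 to 4.86e+05 in wild type, 5.21e+05 to 5.44e+05 in B3 and 4.74e+05 to 4.96e+05 in C4. Of 10 immune cell markers 8 had a row, and the defining markers PTPRC, CD3E, MS4A1 and NKG7 were below the filter in every group. The summed antilogs of those 8 ran from 590 to 620 in wild type, 555 to 595 in B3 and 507 to 531 in C4. Of the 4 tested, LYZ rose in C4 by 0.25 ± 0.04 and CD8A changed by -0.39 ± 0.05 against wild type, and 3 were higher and 1 was lower in C4 than in B3. The part of these markers in the class I results was not tested. In such bulk RNA, fewer cells of a type and less RNA per cell cannot be told apart.

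Most of the class I genes rose in C4 and most fell in B3. In C4, 7 of the 9 rose and 1 fell against wild type, where 56.2% of all genes tested were called and 28.2% were called higher. In B3 none rose and 7 fell, where 47.9% of all genes tested were called, 23.2% higher and 24.6% lower. The genes called in opposite directions in the lines were 5 of the 9: HLA-B, HLA-C, HLA-E, B2M and TAP1. That count fell to 2 with equal library totals (HLA-E and B2M) and without B3 replicate 2 (HLA-E and TAP1), and to 3 without wild-type replicate 1 or B3 replicate 1 (HLA-E, B2M and TAP1). The share of all genes tested that was called in opposite directions in the lines was not counted. Between the lines, 8 of the 9 were higher in C4 than in B3 and none was lower, where 56.4% of all genes were called and 28.6% were called higher. The median change of the 9 genes was 0.25 in C4, -0.10 in B3 and 0.37 between C4 and B3. Over all genes tested the median was 0.0012, 0.0001 and 0.0006. By at least 0.25 on the log2 scale, 5 of the 9 were called higher in C4 than in wild type, against 6.57% of all genes tested, and 6 were called higher in C4 than in B3, against 8.63%. The libraries did not overlap for the 7 genes that rose in C4, as for 30.5% of all genes, and for 6 of the 7 that fell in B3, as for 27.4%. By mean level, 6 genes had the order C4, wild type, B3 from high to low: HLA-B, HLA-C, HLA-E, B2M, TAP1 and PSMB9. TAP2 and TAPBP had the order wild type, C4, B3, and NLRC5 the order C4, B3, wild type.

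**Figure D1:**
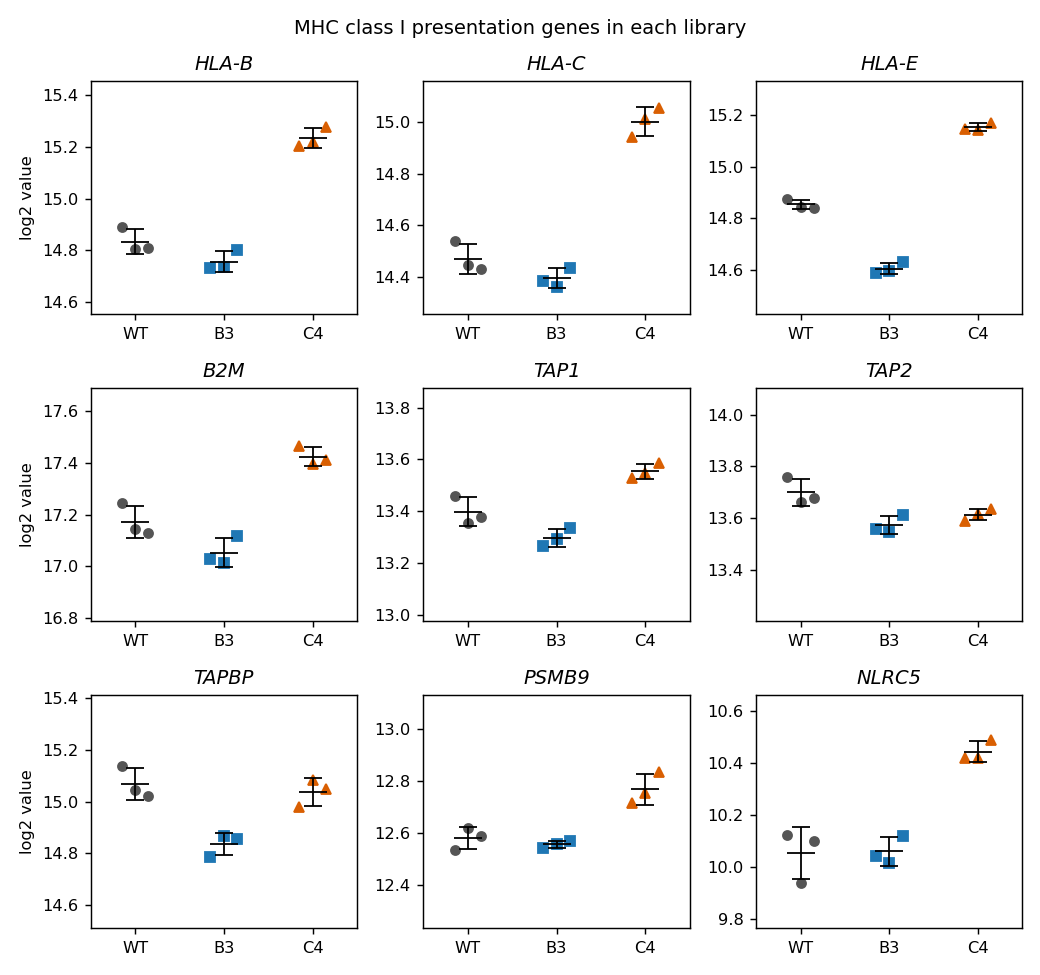
Deposited log2 value (vertical axis, each panel spanning 0.9 log2 units) of each gene in each of the 9 libraries, with points for libraries 1 to 3 from left to right and a bar for the mean ± SD (n = 3 per group). The C4 triangles lie above all other points for HLA-B, HLA-C, HLA-E, B2M, TAP1, PSMB9 and NLRC5, and TAP2 and TAPBP have no such gap.

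All 3 heavy chain genes rose in C4, and all 3 were called lower in B3, where the calls of HLA-B and HLA-C were weak. HLA-B and HLA-C encode classical heavy chains, which present peptides to T cells and also bind receptors of natural killer cells. HLA-B (ENSG00000234745.10, chromosome 6, 31269491 to 31357188, minus strand) and HLA-C (ENSG00000204525.16, chromosome 6, 31268749 to 31272130, minus strand) overlap in GENCODE 29 on GRCh38, because the annotated span of HLA-B reaches into HLA-C. Of 50-base windows in the longest coding transcript of each gene, 2.54% for HLA-B, 6.71% for HLA-C and 4.66% for HLA-E occur exactly in another annotated HLA class I gene. Reads of such stretches could have been split by the counting, and alleles of LN229 that differ from the reference could lower the counts in every group.

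HLA-C had log2 values of 14.54, 14.45 and 14.43 in wild type, 14.39, 14.36 and 14.44 in B3 and 14.94, 15.01 and 15.05 in C4. All 3 C4 libraries lay above the other 6, while wild type and B3 overlapped. HLA-C was 0.53 ± 0.03 higher in C4 than in wild type, a 1.44-fold level (adjusted p = 4.6e-13, limma). In B3 the change was -0.08 ± 0.03 (adjusted p = 0.0399, limma). That call is weak: it ended in 9 of 20 alternatives, with adjusted p from 0.02 to 0.263. The call ended with the replicate block (0.0628) and without wild-type replicate 1 (0.21), B3 replicate 1 (0.1), B3 replicate 2 (0.174) or C4 replicate 2 (0.051).

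HLA-B had log2 values of 14.89, 14.81 and 14.81 in wild type, 14.73, 14.74 and 14.80 in B3 and 15.20, 15.22 and 15.28 in C4. The 3 groups did not overlap, though the highest B3 library came close to the lowest wild-type library. HLA-B was 0.40 ± 0.03 higher in C4 than in wild type, a 1.32-fold level (adjusted p = 1.55e-11, limma). In B3 it was at -0.08 ± 0.03 (adjusted p = 0.0231, limma), a call that ended in 7 of 20 alternatives, with adjusted p from 0.00801 to 0.197. Among these were the fits without wild-type replicate 1 (0.113), B3 replicate 1 (0.106) or B3 replicate 2 (0.0935).

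HLA-E (ENSG00000204592.8, chromosome 6, 30489467 to 30494205, plus strand) encodes a non-classical heavy chain that presents leader peptides of other class I chains to NKG2 receptors of natural killer cells. HLA-E had log2 values of 14.87, 14.85 and 14.84 in wild type, 14.59, 14.60 and 14.63 in B3 and 15.15, 15.14 and 15.17 in C4. Its replicates lay close together and the 3 groups were well apart. It fell by 0.25 ± 0.02 in B3 (adjusted p = 2.91e-09, limma) and rose by 0.30 ± 0.02 in C4 (adjusted p = 6.23e-11, limma), so that C4 was 1.46-fold above B3.

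B2M (ENSG00000166710.18, chromosome 15, 44711487 to 44718877, plus strand) encodes beta-2 microglobulin, the light chain that every class I heavy chain needs to reach the surface. B2M had log2 values of 17.24, 17.15 and 17.13 in wild type, 17.03, 17.01 and 17.12 in B3 and 17.47, 17.40 and 17.41 in C4. The C4 libraries lay above all others, and B3 lay just below wild type. B2M rose by 0.25 ± 0.03 in C4 (adjusted p = 1.67e-06, limma) and fell by 0.12 ± 0.03 in B3 (adjusted p = 0.00696, limma). The call in B3 ended without B3 replicate 2, where the adjusted p was 0.0545. The alternatives spanned 0.00192 to 0.0545. The log2 value of HLA-C less that of B2M, not corrected for gene length, went from -2.70 ± 0.0041 (SD, n = 3) in wild type to -2.42 ± 0.09 (SD, n = 3) in C4. The exact two-sided permutation test of that shift gave p = 0.1, the smallest value that 3 against 3 libraries allow.

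The promoters of HLA-B, HLA-C and B2M are shown because these genes rose together in C4 and their start regions share a known arrangement of elements. The sequences are RefSeq promoters on GRCh38.p14, each with 250 bases before and 50 bases after the start site, printed 5′ to 3′ on the strand of the gene. A promoter was given for 7 of the 9 genes. Capitals mark the core of the interferon-stimulated response element (GAAA, any 2 bases, GAAA), the NF-kB site of enhancer A (GGGGA, any base, TCCC) and the ends of an arrangement in which TGACG, the core of the CRE-like X2 box, is followed after 10 to 25 bases by ATTGG, the Y box. All were searched on both strands, so that overlapping matches run together.
HLA-B, chr6:31357130-31357429, minus strand: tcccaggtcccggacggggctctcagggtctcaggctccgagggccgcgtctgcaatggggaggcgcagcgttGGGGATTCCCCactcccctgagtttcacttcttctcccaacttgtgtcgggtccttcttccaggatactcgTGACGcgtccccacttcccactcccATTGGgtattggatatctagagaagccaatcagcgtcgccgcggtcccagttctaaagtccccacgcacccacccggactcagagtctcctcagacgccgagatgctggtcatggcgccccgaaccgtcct
HLA-C, chr6:31272043-31272342, minus strand: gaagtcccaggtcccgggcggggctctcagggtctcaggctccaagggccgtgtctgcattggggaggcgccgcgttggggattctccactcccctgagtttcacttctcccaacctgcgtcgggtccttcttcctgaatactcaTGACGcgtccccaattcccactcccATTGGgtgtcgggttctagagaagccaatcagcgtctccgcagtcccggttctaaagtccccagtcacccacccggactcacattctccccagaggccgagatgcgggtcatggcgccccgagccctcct
B2M, chr15:44711267-44711566, plus strand: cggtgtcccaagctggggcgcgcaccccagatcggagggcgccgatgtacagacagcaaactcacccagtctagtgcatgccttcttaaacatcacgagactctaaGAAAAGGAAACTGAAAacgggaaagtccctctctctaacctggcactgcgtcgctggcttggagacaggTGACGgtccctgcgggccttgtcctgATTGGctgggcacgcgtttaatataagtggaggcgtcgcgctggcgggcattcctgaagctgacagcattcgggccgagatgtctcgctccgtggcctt
The X2 and Y box arrangement was found in these 3 promoters and in none of the other 4, against 0.627% of 34796 promoters of the same length. It began at position -106 from the start site in HLA-B, -105 in HLA-C and -75 in B2M. The NF-kB letters were found in HLA-B alone among the 7, against 0.425% of all promoters, and in HLA-C those letters are not in this window. The interferon element letters were found in B2M, TAP1, TAP2 and TAPBP, 4 of the 7, against 3.57% of all promoters. The palindrome-like TTCNNNGAA of the gamma-activated site was in none of the 7 promoters used, against 7.67% of all promoters. On their own, TGACG was in 5 of the 7 (24.5% of all promoters) and ATTGG in 5 (34.6%). These counts use the upstream start site of TAP1. The promoter of its other listed start site holds the gamma-activated site letters at position -189 and neither the interferon element letters nor ATTGG. A match describes letters only and says nothing of binding in these cells.

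The transporter subunits both fell in B3 and moved apart in C4. TAP1 (ENSG00000168394.11, chromosome 6, 32845209 to 32853978, minus strand) and TAP2 (ENSG00000204267.13, chromosome 6, 32821833 to 32838780, minus strand) encode the partner subunits of the transporter that brings peptides into the endoplasmic reticulum. TAP1 had log2 values of 13.46, 13.35 and 13.38 in wild type, 13.27, 13.29 and 13.33 in B3 and 13.53, 13.55 and 13.59 in C4. TAP1 rose by 0.16 ± 0.03 in C4 (adjusted p = 3.78e-05, limma) and fell by 0.10 ± 0.03 in B3 (adjusted p = 0.00426, limma). The groups did not overlap, and the decrease in B3 was no longer called once the libraries had equal totals (adjusted p = 0.0548, the largest of the alternatives, with 0.00162 the smallest). TAP2 had log2 values of 13.76, 13.66 and 13.68 in wild type, 13.56, 13.55 and 13.61 in B3 and 13.59, 13.62 and 13.63 in C4. Both knockout lines lay below wild type and overlapped each other. TAP2 fell by 0.13 ± 0.03 in B3 (adjusted p = 0.00036, limma) and by 0.09 ± 0.03 in C4 (adjusted p = 0.00746, limma). Its call in C4 ended without wild-type replicate 1 (0.0506) and with equal library totals (0.0781), and the smallest adjusted p was 0.00398. Between C4 and B3, TAP2 differed by 0.04 ± 0.03, which was not called (adjusted p = 0.209, limma).

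TAPBP (ENSG00000231925.11, chromosome 6, 33299694 to 33314387, minus strand) encodes tapasin, the chaperone that bridges the empty class I molecule and the transporter. TAPBP had log2 values of 15.14, 15.04 and 15.02 in wild type, 14.79, 14.87 and 14.86 in B3 and 14.98, 15.08 and 15.05 in C4. B3 lay below all other libraries, and C4 overlapped wild type. TAPBP fell by 0.23 ± 0.03 in B3 (adjusted p = 1.38e-06, limma). In C4 it was at -0.03 ± 0.03 and was not called (adjusted p = 0.407, limma), and it was 0.20 ± 0.03 higher in C4 than in B3 (adjusted p = 6.55e-06, limma).

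The promoters of TAP1, TAP2 and TAPBP are shown because all 3 hold the interferon element letters, in capitals, while only TAP1 among them rose in C4.
TAP1, chr6:32853655-32853954, minus strand: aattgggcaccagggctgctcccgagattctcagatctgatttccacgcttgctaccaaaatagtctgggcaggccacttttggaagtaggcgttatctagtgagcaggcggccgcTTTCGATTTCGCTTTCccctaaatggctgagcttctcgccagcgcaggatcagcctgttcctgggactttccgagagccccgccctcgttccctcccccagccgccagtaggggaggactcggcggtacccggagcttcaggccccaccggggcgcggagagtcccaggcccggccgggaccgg
TAP2, chr6:32838690-32838989, minus strand: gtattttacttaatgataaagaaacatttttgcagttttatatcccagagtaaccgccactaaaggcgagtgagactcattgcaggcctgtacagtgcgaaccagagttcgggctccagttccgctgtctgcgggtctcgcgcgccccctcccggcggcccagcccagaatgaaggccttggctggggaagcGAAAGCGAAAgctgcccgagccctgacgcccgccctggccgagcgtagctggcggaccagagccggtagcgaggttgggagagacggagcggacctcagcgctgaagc
TAPBP, chr6:33314029-33314328, minus strand: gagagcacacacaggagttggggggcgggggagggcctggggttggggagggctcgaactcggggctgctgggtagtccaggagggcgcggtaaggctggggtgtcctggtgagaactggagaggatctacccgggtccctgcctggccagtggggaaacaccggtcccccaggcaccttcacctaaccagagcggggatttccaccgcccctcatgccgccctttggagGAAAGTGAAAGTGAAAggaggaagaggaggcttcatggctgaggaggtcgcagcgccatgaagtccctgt
The interferon element letters overlapped in pairs in TAP1 and TAPBP and stood alone in TAP2. Those nearest to the start site began at position -14 in TAPBP, -58 in TAP2 and -128 in TAP1. For TAP1 the table lists 2 start sites, and the one shown lies 488 bases from the start site of PSMB9, which runs the other way.

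PSMB9 (ENSG00000240065.7, chromosome 6, 32844136 to 32859585, plus strand) encodes a catalytic subunit of the immunoproteasome, the form of the proteasome that interferon induces. PSMB9 and TAP1 overlap on opposite strands in GENCODE 29, and whether the counting used strand is not given in the sources used here. PSMB9 had log2 values of 12.53, 12.62 and 12.59 in wild type, 12.54, 12.56 and 12.57 in B3 and 12.71, 12.75 and 12.83 in C4. C4 lay above the other libraries, and B3 lay within the span of wild type. PSMB9 rose by 0.19 ± 0.03 in C4 (adjusted p = 8.21e-06, limma). In B3 it was at -0.02 ± 0.03 (adjusted p = 0.521, limma), with a sign that changed to 0.0085 with equal library totals.

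NLRC5 (ENSG00000140853.15, chromosome 16, 56989485 to 57083531, plus strand) encodes the coactivator that joins the factors bound at the X2 and Y boxes of class I promoters. NLRC5 had log2 values of 10.12, 9.94 and 10.10 in wild type, 10.04, 10.02 and 10.12 in B3 and 10.42, 10.42 and 10.49 in C4. B3 lay within the span of wild type, and all 3 C4 libraries lay above both. NLRC5 rose by 0.39 ± 0.05 in C4, a 1.31-fold level (adjusted p = 2.18e-07, limma). In B3 it was at 0.0061 ± 0.05 (adjusted p = 0.929, limma). HLA-E fell there, while HLA-B and HLA-C, at -0.08 each, had weak calls. The median absolute change of all genes tested in B3 was 0.0728. NLRC5 was also the lowest of the 9, below the library medians of 10.62 to 10.65. The deposited values may understate changes of weakly expressed genes, and how far this holds at the level of NLRC5 was not tested.

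**Figure D2:**
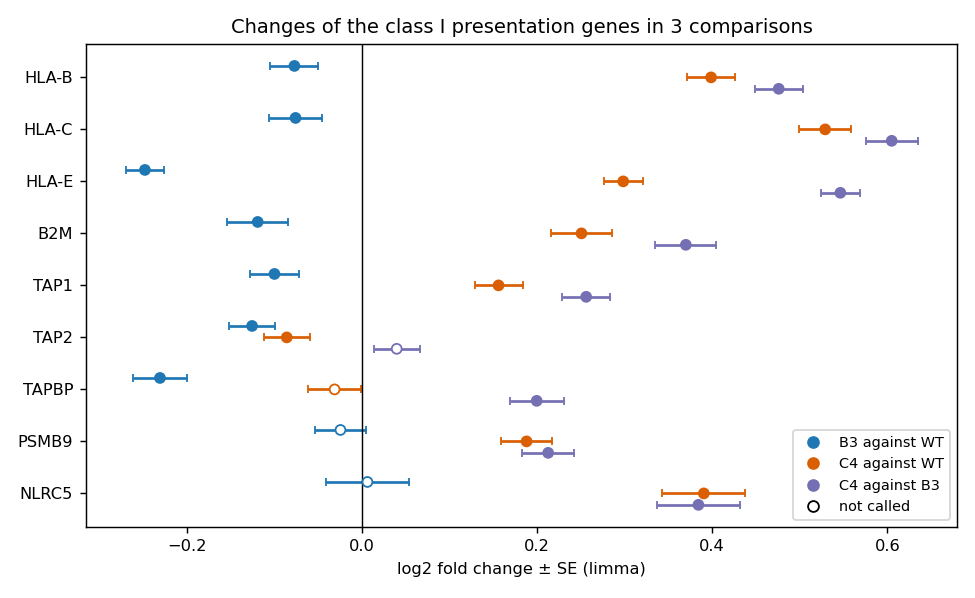
Log2 fold change ± SE (horizontal axis) of each of the 9 genes in B3 against WT, C4 against WT and C4 against B3, from 1 limma fit of 9 libraries, with open circles for genes that were not called. In C4 the values run from -0.09 for TAP2 to 0.53 for HLA-C, in B3 from -0.25 for HLA-E to 0.0061 for NLRC5.

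C4 and B3 were also compared directly, which is the test of whether the lines differ. HLA-C was 0.60 ± 0.03 higher in C4 than in B3 (adjusted p = 3.5e-14, limma), HLA-E 0.55 ± 0.02 (adjusted p = 9.87e-16) and HLA-B 0.48 ± 0.03 (adjusted p = 5.49e-13). The light chain gene B2M differed by 0.37 ± 0.03 and the coactivator gene NLRC5 by 0.38 ± 0.05. TAP1, PSMB9 and TAPBP differed by 0.26 ± 0.03, 0.21 ± 0.03 and 0.20 ± 0.03. Each of these 8 genes remained called in the direct comparison under all 20 alternatives, and the libraries of the lines did not overlap for them. Groups did not overlap with C4 higher for 31.4% of all genes tested.

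Per kilobase of annotated coding-transcript exons, the order of the genes was the same in all 3 groups: B2M, HLA-B, HLA-C, HLA-E, TAPBP, PSMB9, TAP1, TAP2 and NLRC5, from high to low. In wild type the log2 level per kilobase was 15.92 for B2M, 14.06 for HLA-B, 13.84 for HLA-C and 13.47 for HLA-E. TAPBP, PSMB9, TAP1 and TAP2 followed at 13.00, 12.64, 11.83 and 11.07, and NLRC5 stood far below at 7.18. Every gap between neighbours in this order was larger than the SD between replicates of either gene. That SD does not cover the choice of exon length, on which the order depends. Without division by length the order differed, with TAPBP (15.07) above HLA-E (14.85) in wild type. The closest neighbours were HLA-B and HLA-C in C4, 0.09 apart with a larger SD of 0.06, against 0.22 apart in wild type.

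The libraries within a group also differed in a shared way. Wild-type replicate 1 was the highest of its group for 8 of the 9 genes, B3 replicate 3 for 8 and C4 replicate 3 for 7. Averaged over the 9 genes, these libraries stood 0.05, 0.04 and 0.03 above their group means, while their median deviation over all genes tested was -0.0004, -0.0005 and -0.0005. The part of these library differences in the group results was not tested, apart from leaving out each library. Without wild-type replicate 1, 7 of the 9 genes were still called higher in C4 and none lower, and 5 were called lower in B3. Without B3 replicate 2, 4 were called lower in B3.

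Further genes of class I processing also differed by line. Of 13 such genes outside the 9, 8 rose in C4 and none fell, with a median of 0.12. In B3, 3 rose and 5 fell, with a median of -0.03. Between the lines, 10 of the 13 were higher in C4 and none was lower, with a median of 0.24. The other inducible subunits of the immunoproteasome were among those that rose in C4: PSMB10 by 0.39 ± 0.04 and PSMB8 by 0.31 ± 0.02. HLA-F, a non-classical heavy chain gene, rose by 0.33 ± 0.04 and CALR, the gene of the chaperone calreticulin in the peptide loading complex, by 0.25 ± 0.03. In B3, TAPBPL, the gene of a tapasin-related peptide editor, changed by -0.59 ± 0.03 and ERAP1, the gene of an aminopeptidase that trims peptides in the endoplasmic reticulum, by -0.18 ± 0.02, while CALR rose by 0.17 ± 0.03. Without wild-type replicate 1 the count in B3 was 2 higher and 3 lower.

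**Figure D3:**
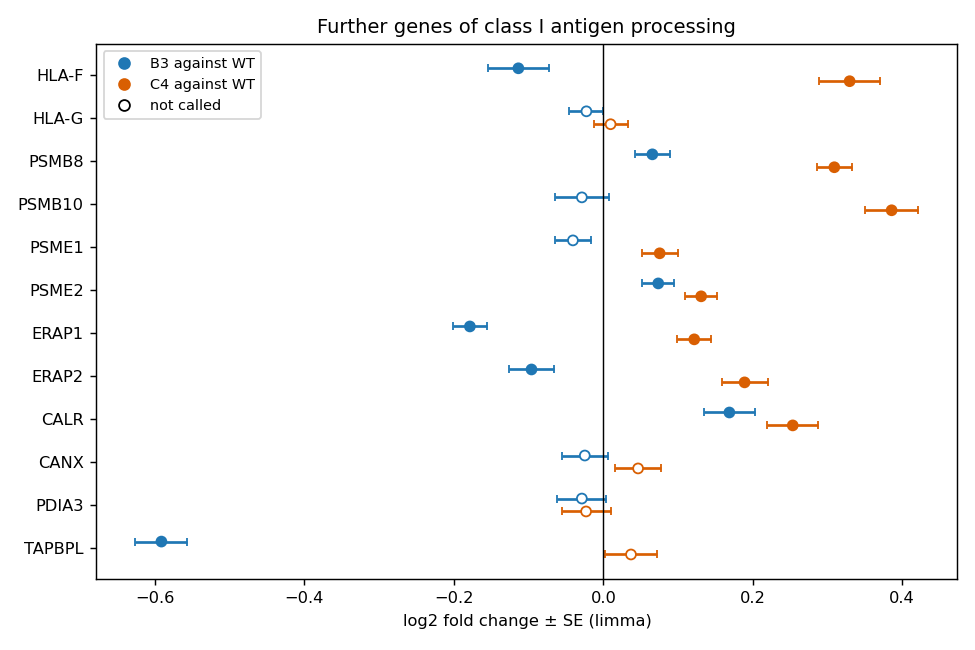
Log2 fold change ± SE (horizontal axis) of 12 of the 13 further genes of class I processing in B3 against WT and in C4 against WT, with open circles for genes that were not called. PSMB10 reached 0.39 in C4 and TAPBPL -0.59 in B3.

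TAPBPL lay among genes that were lower in B3 as a region. Of the 51 other genes tested whose start was within 1000 kb of its own, 38 were called lower in B3 and none higher, with a median of -0.24. The same window gave 12 higher and 8 lower in C4. In the same windows around each of the 9 genes, from 10.3% to 24% of the other genes were called lower in B3. The share over all genes tested was 24.6%. Of the 158 other genes tested between 28 and 34 Mb of chromosome 6, which holds 7 of the 9, 40 were higher and 25 lower in B3, with a median of 0.03. In C4, 57 of the 158 were higher and 32 lower, with a median of 0.04. Without the genes of the lists used here, 45 of 144 were higher in C4 and 32 lower, with a median of 0.02, and the rest of chromosome 6 had 177 higher and 163 lower of 643. Around B2M on chromosome 15, 1 of 22 genes within 1000 kb was higher in C4 and 11 were lower, with a median of -0.05. In C4, 45.3% of the genes around TAP1, TAP2 and PSMB9 and 48.8% of those around TAPBP were called higher. These windows still held PSMB8 and class II genes, HLA-DRA and HLA-DMA among them, which rose by 0.31, 0.52 and 0.73 in C4. Their share without such genes was not counted. Around HLA-B, HLA-C and HLA-E, 37.3%, 35.9% and 28.3% were called higher in C4. Over all genes tested that share was 28.2%. Around NLRC5 on chromosome 16, 13 of 25 were higher in C4 and 5 lower, with a median of 0.07, against 0.39 for NLRC5.

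**Figure D4:**
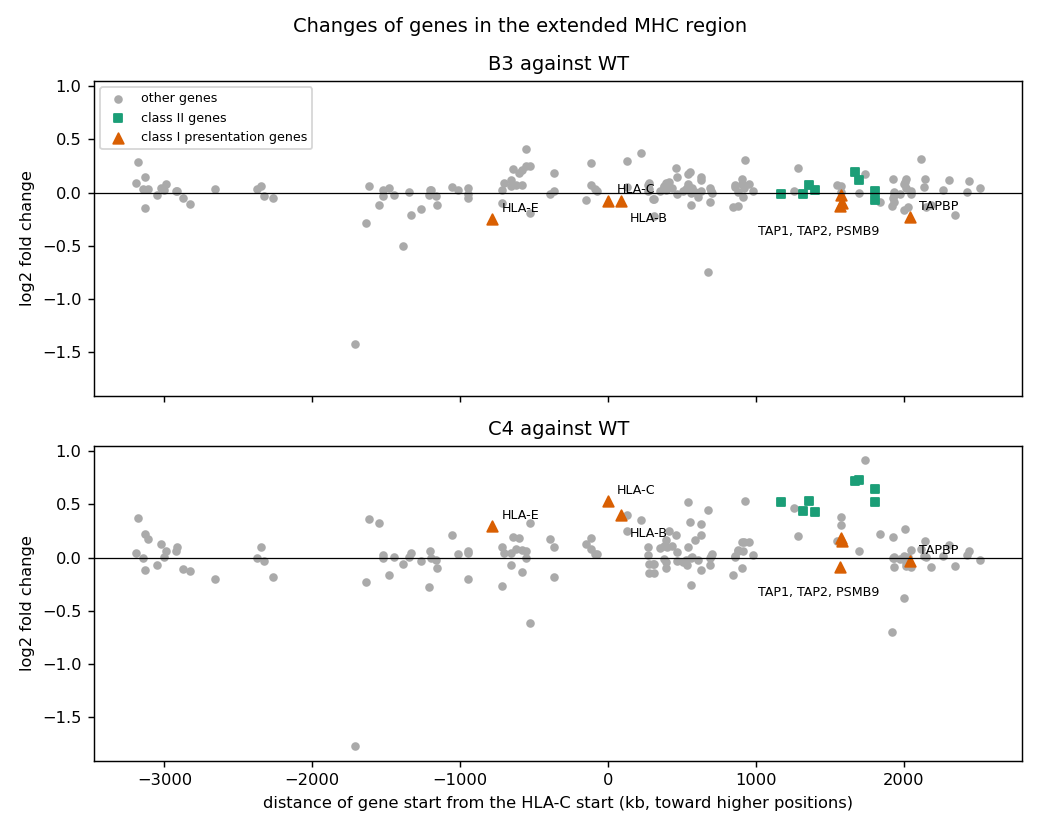
Log2 fold change (vertical axis) of the tested genes between 28 and 34 Mb of chromosome 6 against the distance of their start from that of HLA-C in kb (horizontal axis), for B3 and C4 against WT. In C4 the listed class II genes (squares) and HLA-C, HLA-B and HLA-E stand above most of the other genes. TAP2 and TAPBP lie at -0.09 and -0.03. The other genes include class II genes outside the list, such as HLA-DOA at 0.91 in C4.

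Class II molecules present peptides from outside the cell. The class II list of 10 genes holds 8 HLA genes of the same region and CIITA and CD74, which lie outside it, and all 10 rose in C4, with a median of 0.53. In B3, 4 of the 10 rose and 1 fell, and 3 rose and none fell without wild-type replicate 3. CIITA, the gene of the class II coactivator and counterpart of NLRC5, rose by 1.08 ± 0.04 in C4 and by 0.53 ± 0.04 in B3, where NLRC5 was not called.

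The subunits of the standard proteasome core, which the inducible subunits partly replace, did not follow the class I genes. Of 14 such genes, 11 rose and 1 fell in B3, and 7 rose and 4 fell in C4. Between the lines, 1 was higher and 10 were lower in C4, the opposite side from the 8 class I genes. PSMB2 rose by 0.25 ± 0.02 in B3 and by 0.18 ± 0.02 in C4. PSMB4 and PSMA6 were -0.19 ± 0.02 and -0.18 ± 0.03 in C4 against B3.

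Among the genes of factors that act at class I promoters, 3 of 13 rose and 4 fell in B3, and 5 rose and 4 fell in C4. IRF1, an interferon-induced activator of class I genes, had the directions of most class I genes, at -0.19 ± 0.03 in B3 and 0.11 ± 0.03 in C4. NFKB1, a subunit of NF-kB, and CREB1, a factor of CRE elements, changed by -0.30 ± 0.02 and -0.19 ± 0.02 in C4. ATF1, a relative of CREB1, changed by -0.28 ± 0.03 in B3, and NFYA and NFYC, subunits of the Y box factor, both rose there by 0.19 ± 0.02. RFX5, the DNA-binding subunit of the X box complex, was not called in either line.

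Of 13 interferon signalling genes tested, IRF1 among them, 2 rose and 5 fell in B3, and 6 rose and 3 fell in C4. In these comparisons 47.9% and 56.2% of all genes tested were called. IRF9 and STAT2, partners in the type I interferon factor, rose by 0.63 ± 0.03 and 0.43 ± 0.03 in C4, where the feedback inhibitor gene SOCS3 rose by 0.28 ± 0.03. IRF9 rose in B3 too, by 0.32 ± 0.03, while STAT2 and SOCS3 changed there by -0.12 ± 0.03 and -0.17 ± 0.03. IFNGR2, a subunit of the receptor for interferon gamma, changed by -0.52 ± 0.02 in C4 and was at 0.0004 ± 0.02 in B3. IFNB1, the gene of interferon beta, was below the filter, at a mean of 1.59 over the 9 libraries. Of ligands for natural killer cells and checkpoint receptors, 9 of 10 were tested. In B3, 2 rose and 4 fell, and in C4, 2 rose and 2 fell, with the same 2 rising in both lines. These were MICB, at 0.37 ± 0.03 in B3 and 0.35 ± 0.03 in C4, and MICA, at 0.30 ± 0.04 and 0.25 ± 0.04, which are stress-induced relatives of class I that bind NKG2D. PVR, a ligand of DNAM-1 and TIGIT, changed by -0.14 ± 0.03 in B3 and -0.21 ± 0.03 in C4.

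The genes whose profile over the 9 libraries was most like the mean profile of the 9 class I genes were TACC1, APOE, CD63, OPN3 and ATG2B, with Pearson r of 0.999, 0.997, 0.996, 0.995 and 0.993. The 9 points form 3 groups and share the same libraries, so r mainly describes the group means. CD63, a tetraspanin of late endosomes and lysosomes, was 0.37 ± 0.03 higher in C4 and at -0.19 ± 0.03 in B3. APOE, the gene of the lipid carrier apolipoprotein E, was 0.37 ± 0.03 higher in C4 and at -0.19 ± 0.03 in B3. Among the class I genes, the r with the mean of the other 8 was highest for TAP1 at 0.987 and lowest for TAPBP at 0.596 and TAP2 at 0.145.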

How the data were processed

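LN229 RNA was measured in 9 libraries, 3 per group, grouped by the labels. The tools DESeq2, STAR (version 2.7.3a) and Subread (version 1.6.3) and the build hg38 are listed, with no roles, per the submitters' processing notes. The authors deposited log2 values scaled between libraries for 19356 genes; the transform is not given in the sources used here, and the values look like regularized logs. They were used as deposited, although the plan allowed for linear values. Genes whose mean antilog reached 10 were tested (16457, with 2899 left out) in 1 limma fit (limma 3.58.1, R 4.3.3, data.table package, version 1.17.8) with a coefficient per group and an intensity trend, two-sided, checked on simulated data. Exact permutation tests used SciPy 1.17.1. Positions are from GENCODE 29, which placed 92.6% of the tested symbols once, and NECTIN2 was read as PVRL2. The members, lists and tests were chosen with earlier results of these data known. Genes named were the members, up to 4 called genes with the largest changes per list and comparison, and the 5 most alike genes whose mean antilog reached 50. RFX5, IFNB1, GFAP and other genes named outside that rule were chosen after their values were seen. Alternatives were other filters, pseudocounts, scalings, moderations and thresholds, a replicate block and leaving out each library. No label gives a batch or date. Some genes counted in the lists are not reported here by name.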

Additional observations from a re-analysis of the deposited data

Results flagged for a closer look

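The change in C4 differed from the change in B3 for 8 of the 9 class I genes, by the direct limma comparison of C4 with B3, which tests that difference. Of all genes tested, 56.4% were called in that comparison, and 28.6% were called higher in C4. C4 was higher by 0.48 for HLA-B, 0.60 for HLA-C, 0.55 for HLA-E, 0.37 for B2M, 0.26 for TAP1, 0.20 for TAPBP, 0.21 for PSMB9 and 0.38 for NLRC5. For HLA-B, HLA-C, HLA-E, B2M and TAP1 the changes against wild type were called in opposite directions in the 2 lines. Of these 5, only HLA-E and B2M were still called so with equal library totals, and only HLA-E and TAP1 without B3 replicate 2. How many of all genes tested were called in opposite directions was not counted.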

How the results depend on the processing

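Of 20 alternatives, those that changed the number of class I genes called lower in B3 by over 1.5 times, from 7, were scaling every library to the same total, which gave 4, and leaving out a library, which gave 4 to 7. With the replicate block B3 had 6 called genes and C4 had 8, and the block ended no call of the 9 genes other than that of HLA-C in B3. Same-numbered libraries of different groups did not deviate together, with r from -0.229 (wild type and B3, replicate 1) to 0.016 (wild type and B3, replicate 2). The deviations within a group of 3 offset one another, so these r cannot decide whether the numbers pair libraries. The labels do not say. Signs changed only for values that were not called: PSMB9 in B3 at 0.0085 with every library at the same total, NLRC5 in B3 at -0.0517 to 0.0414 and TAPBP in C4 at -0.0552 to 0.0038 with a library left out. Of the 540 values of the 9 genes under the alternatives, 516 kept direction and side of the threshold, 20 lost the call and 4 changed sign. Where a library was left out, its group kept 2 libraries and shared the spread of the other groups. The cause of these differences was not tested. The log2 scale without read counts gives no depth, so small changes of weakly expressed genes may be understated. How far this holds at the level of NLRC5 was not tested.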
